A study of Mus musculus with 4 samples.

Results

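Laminin-332 is the protein of the basement membrane to which basal keratinocytes (KCs) are fixed, and hemidesmosomes are the plaques on the cell side of that bond. RNA levels of 8 genes of this system were compared here between cultured mouse KCs of 2 labelled genotypes. The genes were taken by name from the deposited tables: Lama3 and Lamb3 (laminin chains), Itga6 and Itgb4 (the integrin that binds laminin-332), Cd151 (its tetraspanin partner), Col17a1 (collagen XVII), and Dst and Plec (plakins). All 8 were found among the 25814 genes listed, and all 8 were among the 12614 genes with enough reads to be tested. The values that describe them are RPKM (reads per kilobase of exon, scaled to the mapped reads of the library), which corrects for gene length, and total gene reads, on which the test was run.

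Laminin-332 is a trimer of laminin chains, alpha3 and beta3 among them, which KCs secrete and process in the matrix. The alpha6beta4 integrin grips it from the basal cell surface, collagen XVII spans the same membrane, and the plakins BPAG1e (from Dst) and plectin (from Plec) tie both to the keratin 5 and keratin 14 filaments inside. Inherited loss of laminin-332, this integrin or collagen XVII loosens the epidermis from the dermis, and the skin blisters.

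The KCs came from the tails of adult 129/sv mice, WT or Nfat5-/- (labelled Wildtype and Nfat5-Knockout), and 2 polyadenylated RNA libraries were sequenced per genotype. NFAT5 is a transcription factor known for the response to osmotic stress. All cultures were untreated and grown without serum in a medium with 0.06 mM calcium, a low level that favours the basal state of KCs, and they grew on plates, without dermis. The libraries are described as separate experiments, and the sources used here name neither batch nor date. WT and Nfat5-/- mice were siblings, and which libraries share a litter is not given. The p-values set each difference against a spread between libraries that the test estimates partly from other genes. The disrupted part of Nfat5 is not given in the sources used here. Nfat5 transcripts did not separate the labels: they stood at 1.67 and 3.0 RPKM in WT libraries against 2.02 and 2.78 RPKM in those labelled Nfat5-/- (log2 fold change 0.09, SE 0.26, adjusted p = 0.913 in the edgeR quasi-likelihood test). Totals per gene do not show a deletion of some exons, so this level does not test the labels, and the groups are called by them throughout.

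The libraries held 16219445 to 23494436 gene reads, and 3 reads, the least taken as a level, came to 0.128 to 0.185 CPM (reads scaled to library size). The 8 genes had 5941 to 53012 gene reads each per library. Of the basal KC markers, Krt5, Krt14 and Trp63 were expressed in all 4 libraries, whereas Krt15 stayed under 1 RPKM. Summed over Krt5, Krt14, Krt15 and Trp63, basal markers reached 10447 to 11993 RPKM in WT libraries against 10452 to 11840 RPKM in those labelled Nfat5-/-, with 0 of 4 past the threshold. The 5 suprabasal markers summed to 4.97 to 5.51 RPKM in WT libraries against 7.31 to 10.5 RPKM in the others, also with 0 past it. In none of the 5 did the groups overlap, with 4 higher and 1, Krt10, lower in the others. Over all genes tested 46.5% did not overlap either. Krt1 and Krt10 held 7 to 38 gene reads per library. For Flg the log2 fold change, from gene reads that include introns, was 0.06. Fibroblast, endothelial, Merkel and Schwann cell markers stayed under 1 RPKM each, with Atoh1 at 0 throughout. Of 4 immune markers only Cd68 passed 1 RPKM. The summed level of the endothelial, Merkel and Schwann cell markers also lay apart between the labels, at no more than 0.777 RPKM in any library. So did those of the suprabasal, smooth muscle and melanocyte markers, whose values stand beside the laminin result.

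In WT KCs the transcripts of this system were among the most abundant. By mean RPKM Lamb3 took rank 151 of the 25814 genes, Itgb4 rank 154, Col17a1 rank 273, Cd151 rank 366, Lama3 rank 410, Itga6 rank 439 and Plec rank 967, with Dst far behind at rank 3926. The WT ranges of Lamb3 and Itgb4 overlapped, and so did those of Cd151 and Lama3 and of Lama3 and Itga6, so the order inside these pairs was not larger than the spread. In the libraries labelled Nfat5-/- the order of mean RPKM was Itgb4, Col17a1, Lamb3, Cd151, Itga6, Lama3, Plec and Dst. There Lamb3 took rank 324 and Lama3 rank 694, while Itgb4 (rank 168), Col17a1 (rank 292) and Cd151 (rank 373) held places near those in WT. In that order the ranges of neighbours overlapped for Col17a1 and Lamb3 alone.

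**Figure D1:**
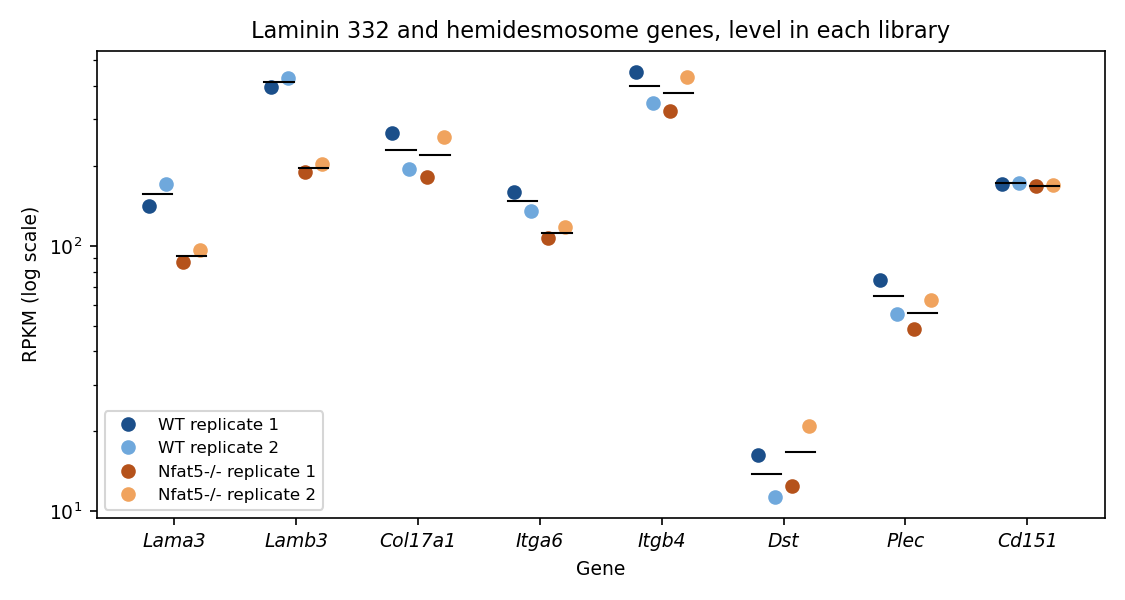
RPKM (vertical log axis) of the 8 genes (horizontal axis), with 1 point per library (blue for WT, orange for the libraries labelled Nfat5-/-) and a bar at the mean of each pair. Lamb3 lies at 397 and 429 RPKM in WT libraries against 190.2 and 204 RPKM in the others, Lama3 separates in the same direction, and Col17a1, Itgb4, Dst and Plec overlap between the groups.

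The laminin chains were the members that changed. Between the labelled genotypes, 2 of the 8 genes, Lama3 and Lamb3, passed the edgeR quasi-likelihood test (Benjamini-Hochberg adjusted p under 0.05), both lower in the libraries labelled Nfat5-/-. Over all genes tested the share called was 1.27%, or 0.325% lower and 0.943% higher. The median log2 fold change of the 8 genes was -0.13, against -0.01 over all genes tested, and 7 of 8 lay below 0. Signs depended on the libraries used. Without Nfat5-/- replicate 1, Col17a1 (0.20), Itgb4 (0.16), Dst (0.63) and Cd151 (0.02) lay above 0. Without WT replicate 1, Col17a1, Itgb4, Dst and Plec did. Without WT replicate 2 only Dst lay above 0, and without Nfat5-/- replicate 2 no member did. Without Nfat5-/- replicate 1, none of the 8 were called (0 of 8, against 0.24% of all genes), and without Nfat5-/- replicate 2 (0.122% of all genes) or WT replicate 2 (3.7% of all genes) the 1 called was Lamb3.

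Lamb3 (ENSMUSG00000026639, chr1:193207699-193343878 on GRCm38, plus strand, 32 exons) encodes the beta3 chain of laminin-332. Its transcripts were counted with 33928 and 48824 reads over the whole gene in the WT replicates 1 and 2, against 23544 and 19980 in the replicates labelled Nfat5-/-. In RPKM it stood at 397 and 429 in WT, a mean of 413 ± 22.3 (SD, n = 2), and at 190.2 and 204 in the others, a mean of 197 ± 9.52 (SD, n = 2). Both WT libraries lay far above both libraries labelled Nfat5-/-, and the replicates of each group were close. The mean was 52.3% lower, and the log2 fold change of -1.05 (SE 0.10, 95% interval -1.29 to -0.80) had an adjusted p of 0.0123 in edgeR. This was the largest change among the 8 genes. The call was lost without Nfat5-/- replicate 1, where the log2 fold change was -0.98 and the adjusted p 0.0558, and over all alternatives the adjusted p ran from 2.13e-17 to 0.0558.

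Lama3 (ENSMUSG00000024421, chr18:12333819-12583013, plus strand, 76 exons) encodes the alpha3 chain, whose end is the part that integrins bind. The gene held 25542 and 41258 reads in WT libraries against 22779 and 19983 in those labelled Nfat5-/-. It stood at 142 and 172 RPKM in WT libraries (157 ± 21.1, SD, n = 2) against 87.1 and 96.5 RPKM in the others (91.8 ± 6.63, SD, n = 2). The groups did not overlap, with WT replicate 2 the highest library. The mean was 41.4% lower, with a log2 fold change of -0.75 (SE 0.13, 95% interval -1.05 to -0.45) and an adjusted p of 0.0452 in edgeR, close under the threshold. The call was lost without Nfat5-/- replicate 1 (adjusted p = 0.155), without Nfat5-/- replicate 2 (0.158) and without WT replicate 2 (0.0560), with log2 fold changes of -0.66, -0.84 and -0.61. Over all alternatives its adjusted p ran from 7.58e-09 to 0.158. The tables sum all transcripts of the gene, so the short and the long alpha3 chain were not told apart.

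The proportion of both chains was also read inside each library. The RPKM of Lama3 was 0.357 and 0.400 times that of Lamb3 in WT libraries against 0.458 and 0.474 times in those labelled Nfat5-/-. The ratio was higher, without overlap, in the libraries labelled Nfat5-/-, where the mean of Lamb3 was lower by the larger percentage of both. With 2 libraries against 2, an exact permutation test of such a ratio cannot go below p = 0.333, so no test is given for the ratios.

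Reads inside introns, which can come from unspliced RNA, were few for the laminin chains but lay on the same side. In introns Lamb3 had 5.49 and 7.59 CPM in WT libraries against 2.77 and 2.84 CPM in those labelled Nfat5-/-, a ratio of means of 0.429 beside 0.477 in exons. For Lama3 the intron level was 13.3 and 20.2 CPM in WT libraries against 10.1 and 10.3 CPM in the others, a ratio of 0.610 beside 0.586 in exons. The groups did not overlap in either case. Lamb3 held 89 and 164 intron reads in WT libraries against 65 and 53 in the others. Hsd11b1, which overlaps Lamb3 on the opposite strand, had 262 and 551 reads against 218 and 89. Whether strand was used in counting is not stated, so Lamb3 introns and this neighbour were not told apart. Among the 2991 genes with at least 1000 exon reads in every library, 40.2% had intron levels lower without overlap in the libraries labelled Nfat5-/-.

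Markers of other cell types and of suprabasal KCs also differed between the labels, in both directions. The 5 smooth muscle markers summed to 151 to 184 RPKM in WT libraries against 518 to 819 RPKM in the others, and the 4 tested were higher in the libraries labelled Nfat5-/- (edgeR adjusted p = 0.00768 to 0.0440). Most of that sum was Acta2 (164, 134, 450 and 723 RPKM in the order WT replicates 1 and 2, Nfat5-/- replicates 1 and 2), while Myh11 did not pass 0.294 RPKM and Des was at 0 in 3 libraries. Acta2 and Tagln stayed past the threshold in all alternatives. Cnn1 lost its call without Nfat5-/- replicate 1 (adjusted p = 0.0668) and without Nfat5-/- replicate 2 (0.275), and narrowly with limma-trend on log2(RPKM + 1). Myh11 lost it without any 1 of the libraries (0.0535 to 0.294) and with exon reads (0.0516). Of 4 tested melanocyte markers 1, Tyrp1, was lower (edgeR adjusted p = 0.0203), a call lost without Nfat5-/- replicate 1 (0.0939) or replicate 2 (0.0800). The 5 melanocyte markers summed to 6.99 to 7.29 RPKM in WT libraries against 2.04 to 2.89 RPKM in the others. Of the suprabasal markers, Lor had 2.54 and 2.59 RPKM in WT libraries against 3.94 and 6.07 RPKM in the others (edgeR adjusted p = 0.134), Krt10 had 0.854 and 0.684 RPKM against 0.55 and 0.52 RPKM (adjusted p = 0.547), and the list summed to 4.97 to 5.51 against 7.31 to 10.5 RPKM. Their part in the result was not tested. In bulk RNA, fewer cells of a type and less RNA per cell cannot be told apart.

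For Lamb3, a gene that changed, and for Col17a1, one that did not pass the test, the sequence before a RefSeq start site is shown, because a DNA-binding factor is the labelled difference between the groups. RefSeq windows (GRCm38.p6) matched 4 of the 8 genes, and those 2 were chosen after their values were seen. The motifs searched were TGGAAA, the core of the element that NFAT5 binds, and TGANTCA, the AP-1 element, both on either strand. Over 250 bases before the start, TGGAAA occurs in 18.6% and TGANTCA in 6.75% of 32851 promoter windows. The windows are printed up to the first base that GENCODE M21 places in an exon of the gene, with a match in capitals. The Lamb3 window lies before an internal start, inside the gene as the deposited tables bound it, whose first base is at position 193207699.
Lamb3, chr1:193301744-193301992, plus strand: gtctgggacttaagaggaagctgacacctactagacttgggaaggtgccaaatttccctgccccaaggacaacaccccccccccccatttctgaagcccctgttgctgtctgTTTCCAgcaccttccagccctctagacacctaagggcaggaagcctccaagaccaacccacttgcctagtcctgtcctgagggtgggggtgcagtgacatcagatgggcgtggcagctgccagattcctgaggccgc
Col17a1, chr19:47692095-47692292, minus strand: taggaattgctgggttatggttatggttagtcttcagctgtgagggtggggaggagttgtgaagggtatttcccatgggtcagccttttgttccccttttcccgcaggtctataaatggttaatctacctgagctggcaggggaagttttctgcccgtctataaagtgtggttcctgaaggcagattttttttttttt
The capitals in the Lamb3 window mark TGGAAA read on the opposite strand, 138 bases before the start at position 193301994. The window of the other RefSeq start of Lamb3, at position 193302243, did not hold TGGAAA. No window of the other matched genes (Col17a1, Dst and Cd151) held it, and none of the 4 held TGANTCA. A match of this length describes letters, not binding.

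The receptor chains of laminin-332 did not pass the test. Itga6 (ENSMUSG00000027111, chr2:71745616-71858416, plus strand, 31 exons) encodes the alpha6 integrin chain, which pairs with beta4 in hemidesmosomes and with beta1 elsewhere. It stood at 160 and 135 RPKM in WT libraries (147 ± 17.4, SD, n = 2) against 107 and 118 RPKM in those labelled Nfat5-/- (112 ± 7.60, SD, n = 2). The groups did not overlap, and the log2 fold change was -0.42 (SE 0.13, 95% interval -0.73 to -0.12). Its p was 0.0136 before and 0.206 after adjustment in edgeR, where 14.6% of all genes tested had an unadjusted p under 0.05. With no filter on low counts the adjusted p was 0.00771, and over all alternatives it ran from that value to 0.597.

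Itga6 differed from the other members in where its reads lay. Intron reads made up 29.1% and 27.0% of its gene reads in WT libraries (95% Wilson intervals 28.5 to 29.7% and 26.4 to 27.5%) against 25.6% and 25.9% in those labelled Nfat5-/- (25.0 to 26.2% and 25.2 to 26.5%). Over all 4 libraries the share was 27.0%, rank 13 of the 2991 genes with at least 1000 exon reads in every library, whose median was 0.538%. In the other members the highest share in any library was 1.78%, in Dst. The deposited tables count 3 transcripts for Itga6, whereas GENCODE M21 lists 8 on the same build. Such a shortfall was not particular to Itga6. It was found in every other member save Lama3 (2 in both), for example 4 against 9 for Lamb3. RPKM uses exon reads alone, and exon CPM gave a ratio of 0.761 between the groups beside 0.673 in introns.

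Itgb4 (ENSMUSG00000020758, chr11:115974709-116008412, plus strand, 47 exons) encodes the beta4 chain, whose long inner tail binds plectin. It was the most abundant member in the libraries labelled Nfat5-/-. Its RPKM was 452 and 346 in WT libraries (399 ± 75.3, SD, n = 2) against 323 and 433 in the others (378 ± 77.8, SD, n = 2). WT replicate 1 and Nfat5-/- replicate 2 were high and the other libraries low, so the groups overlapped. The log2 fold change was -0.05 (SE 0.18, 95% interval -0.49 to 0.38, edgeR adjusted p = 0.925). The ratio of Itgb4 to Itga6 RPKM was 2.83 and 2.56 in WT libraries against 3.03 and 3.69 in those labelled Nfat5-/-.

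Cd151 (ENSMUSG00000025510, chr7:141467392-141471473, plus strand, 17 exons) encodes a tetraspanin that binds the laminin-binding integrins. It was the steadiest member, with 171 and 173 RPKM in WT libraries against 168 and 169 RPKM in those labelled Nfat5-/-. The groups did not overlap, yet the means differed by only 2.03%, and the log2 fold change was -0.01 (SE 0.09, 95% interval -0.23 to 0.21, edgeR adjusted p = 0.977). In all, 4 of the 8 genes (Lama3, Lamb3, Itga6 and Cd151) lay apart in RPKM, each lower in the libraries labelled Nfat5-/-. In CPM of gene reads, scaled with TMM factors, 3 of the 8 lay apart. Over all genes tested the groups did not overlap in 46.5%, and in 25% they lay apart with the lower values in the libraries labelled Nfat5-/-.

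The laminin chains were also set against a receptor component from the same library. The RPKM of Lamb3 was 2.32 and 2.48 times that of Cd151 in WT libraries against 1.13 and 1.20 times in those labelled Nfat5-/-. It was 0.878 and 1.24 times that of Itgb4 in WT libraries against 0.588 and 0.470 times in the others. The ratio of Lama3 to Itga6 was 0.888 and 1.27 in WT libraries against 0.816 and 0.821 in the others. The groups did not overlap in any of these ratios. For Lama3 over Itga6 the means were 1.08 and 0.818, a smaller difference than that of Lama3 alone, with WT replicate 1 close above the other genotype, and the WT replicates were far apart for both ratios that set a chain against an integrin.

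**Figure D2:**
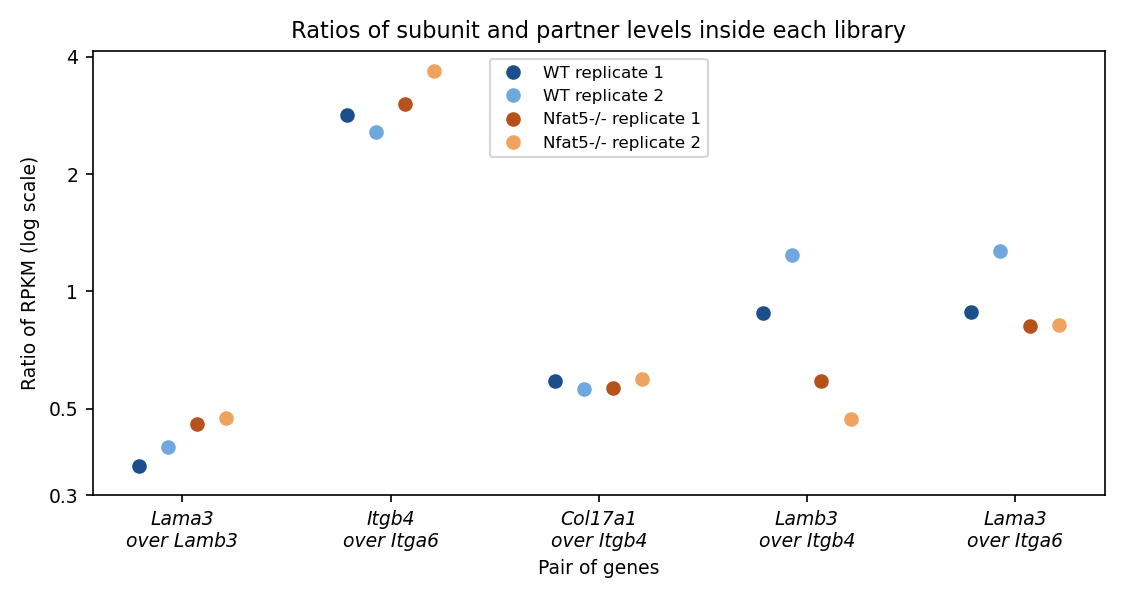
Ratio of the RPKM of 2 genes inside each library (vertical log axis) for 5 pairs (horizontal axis), with 1 point per library in the colours of the plot of levels. Lama3 over Lamb3 is higher and Lamb3 over Itgb4 lower in the libraries labelled Nfat5-/-, while Col17a1 over Itgb4 stays between 0.561 and 0.595 in all 4.

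Collagen XVII did not differ beyond the spread. Col17a1 (ENSMUSG00000025064, chr19:47646344-47692094, minus strand, 54 exons) encodes this collagen, a membrane protein whose outer part is shed by cleavage. It had 266 and 194 RPKM in WT libraries (230.0 ± 50.9, SD, n = 2) against 182 and 258 RPKM in those labelled Nfat5-/- (220.0 ± 53.3, SD, n = 2). As for Itgb4, WT replicate 1 and Nfat5-/- replicate 2 were high and the groups overlapped. The log2 fold change was -0.04 (SE 0.21, 95% interval -0.53 to 0.44, edgeR adjusted p = 0.945), an interval of 0.693 to 1.36 times the WT level.

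The intron reads of Col17a1 did not follow its exons. The intron level was 9.12 and 8.19 CPM in WT libraries against 5.53 and 5.36 CPM in those labelled Nfat5-/-, a ratio of 0.629 beside 0.956 in exons. These rest on 100 to 177 intron reads per library, and the groups did not overlap, as in the 40.2% of well-covered genes given above. Beside Itgb4, the RPKM of Col17a1 stayed in a narrow band, with ratios of 0.588 and 0.561 in WT libraries against 0.564 and 0.595 in the others.

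The plakins, which anchor the plaque to keratin filaments, did not pass the test. Plec (ENSMUSG00000022565, chr15:76170974-76232574, minus strand, 51 exons) encodes plectin. It stood at 74.3 and 55.3 RPKM in WT libraries (64.8 ± 13.4, SD, n = 2) against 48.7 and 62.6 RPKM in those labelled Nfat5-/- (55.6 ± 9.81, SD, n = 2). The groups overlapped, with WT replicate 1 the highest and Nfat5-/- replicate 1 the lowest. The log2 fold change was -0.20 (SE 0.18, 95% interval -0.62 to 0.22, edgeR adjusted p = 0.672).

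Dst (ENSMUSG00000026131, chr1:33908225-34308661, plus strand, 125 exons) encodes BPAG1e in epidermis and larger plakins in nerve and muscle. It was the least abundant member and, in the fit of all 4 libraries, the only one with a log2 fold change above 0. Without Nfat5-/- replicate 2 that of Dst was -0.15, and other members lay above 0 in some fits that left out a library. It had 16.3 and 11.3 RPKM in WT libraries (13.8 ± 3.52, SD, n = 2) against 12.4 and 20.9 RPKM in those labelled Nfat5-/- (16.6 ± 5.98, SD, n = 2). Nfat5-/- replicate 2 was the highest and WT replicate 2 the lowest, and the groups overlapped. The log2 fold change was 0.29 (SE 0.26, 95% interval -0.33 to 0.91, edgeR adjusted p = 0.675), the widest interval of the 8. The RPKM of Dst divides by 34416 bases of exon from all its forms, so the level of a single shorter form cannot be read from it. Relative to its library, the share of exon reads that cross a junction was higher without overlap in the libraries labelled Nfat5-/- for Plec and Dst and lower for Lama3 and Itga6, where 13.1% of well-covered genes were higher and 27.3% lower.

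**Figure D3:**
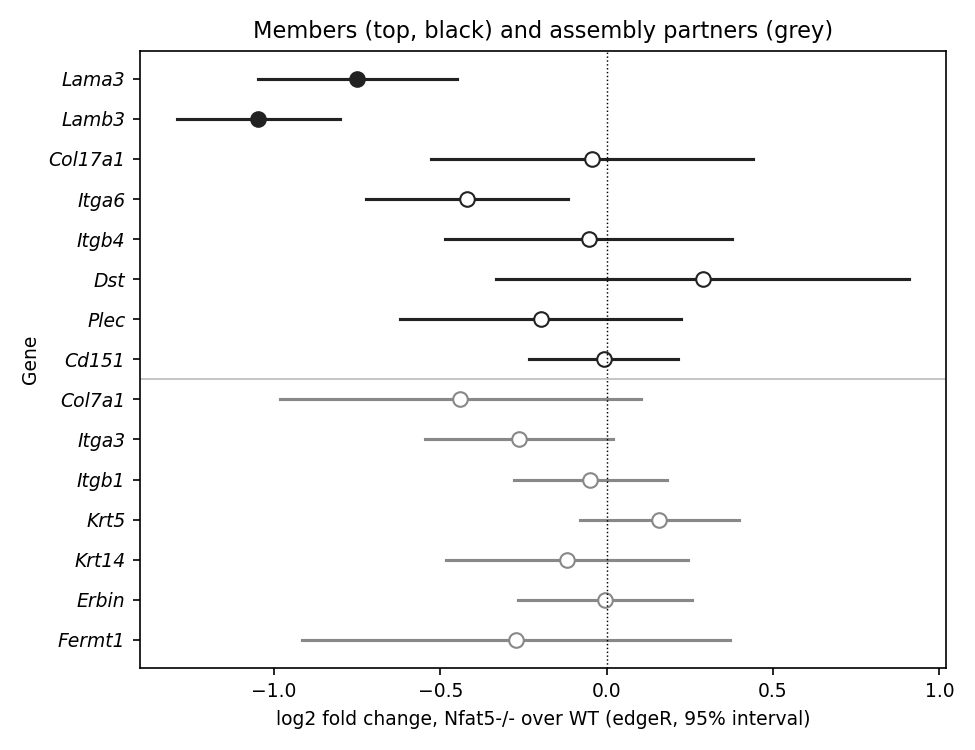
Log2 fold change in edgeR (horizontal axis, libraries labelled Nfat5-/- over WT) with its 95% interval for the 8 genes (black) and 7 assembly partners (grey), with filled points for an adjusted p under 0.05. Lamb3 at -1.05 and Lama3 at -0.75 are the filled points, and the interval of Itga6, -0.73 to -0.12, lies wholly below 0 with an open point.

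Beyond genotype, 5 of the 8 genes shared an order of the replicates. In Col17a1, Itga6, Itgb4, Dst and Plec, WT replicate 1 was above WT replicate 2 and Nfat5-/- replicate 2 above Nfat5-/- replicate 1, a pattern found in 21.6% of all genes tested. For Dst the replicates differed 1.44-fold within WT and 1.68-fold within the other genotype, beside 1.20-fold between the group means. For Itgb4 they differed 1.31-fold and 1.34-fold, beside 1.05-fold between the group means. The other plakins on the list (Dsp, Evpl, Ppl, Eppk1 and Macf1) had the same order, 5 of 5. In Lama3, Lamb3 and Cd151, WT replicate 2 was the higher WT library, and the replicates of a group differed by at most 1.21-fold.

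**Figure D4:**
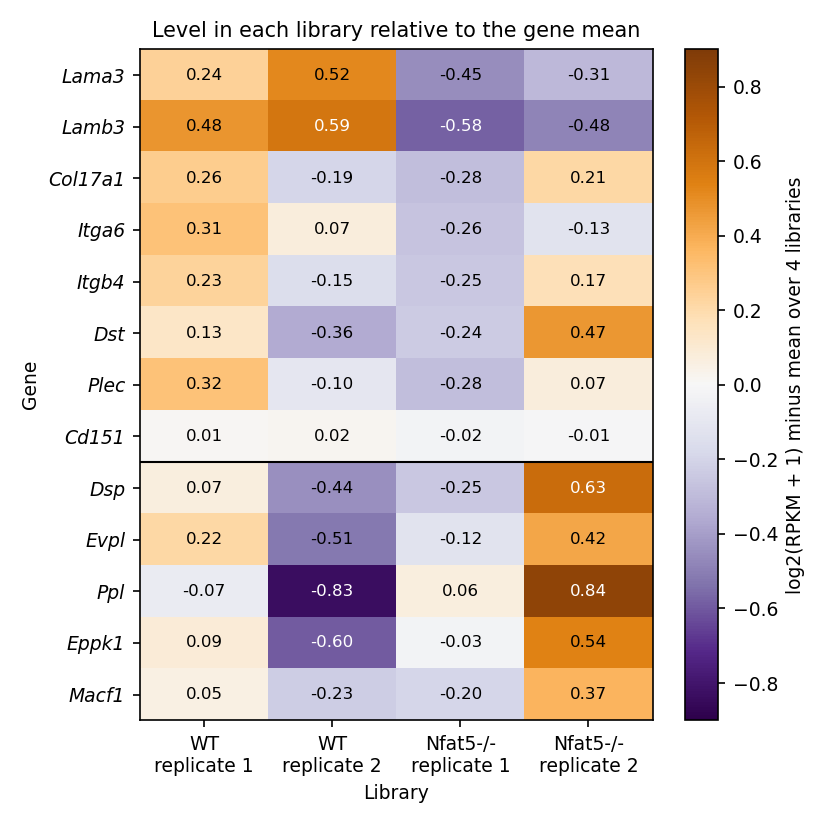
Level of each gene in each library, as log2(RPKM + 1) minus the mean of that gene over the 4 libraries (orange above, purple below the mean), for the 8 genes and 5 other plakins. Lamb3 runs from 0.59 to -0.58 with both WT libraries high, while Dst and these 5 plakins are highest in Nfat5-/- replicate 2 and lowest in WT replicate 2.

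The partner genes listed numbered 43, of which 42 were tested and 1 was called, lower in the libraries labelled Nfat5-/-. Over all genes tested 1.27% were called, 0.325% of them all being called lower. At an unadjusted p under 0.05 there were 5 of 42, beside 14.6% of all genes tested. Among the 7 assembly partners, which cover the anchoring fibril, the alpha3beta1 integrin, the keratins and linker proteins, 0 were called and 6 of 7 log2 fold changes lay below 0, with a median of -0.12. The largest were those of Col7a1, the gene of the anchoring fibril collagen, with -0.44 (edgeR adjusted p = 0.439), and of Fermt1, the gene of the integrin activator kindlin-1, with -0.27 (adjusted p = 0.705). Krt5 and Krt14, the filament keratins at the plaque, stood at 0.16 and -0.12 in log2 fold change, and their adjusted p in edgeR was 0.536 and 0.777.

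The called partner was Tll1, a tolloid-type metalloprotease of the family that trims laminin chains. It had 15.5 and 20.3 RPKM in WT libraries against 5.56 and 8.19 RPKM in those labelled Nfat5-/-, with no overlap, and a log2 fold change of -1.36 (SE 0.21, 95% interval -1.86 to -0.87, edgeR adjusted p = 0.0353). The call was lost without Nfat5-/- replicate 1 (log2 fold change -1.10, adjusted p = 0.130) and without Nfat5-/- replicate 2 (-1.68, 0.0800), and over all alternatives the adjusted p ran from 7.70e-22 to 0.130. Of the 9 genes listed for cleavage of laminin-332 and collagen XVII it was the one past the threshold, and the median of the list was 0.09. Plat, tissue plasminogen activator, had the next largest log2 fold change of that list, 1.31, at low levels (0.50 and 1.27 RPKM in WT, 2.01 and 2.49 RPKM in the others) and did not pass (edgeR adjusted p = 0.180).

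The other lists held 0 called genes. The log2 fold changes of the 5 other plakins were all above 0, with a median of 0.44. The largest were those of Ppl, periplakin, with 1.03 (edgeR adjusted p = 0.239), and of Eppk1, epiplakin, with 0.58 (adjusted p = 0.405). The 7 tested tetraspanins beside Cd151 had a median of 0.15, led by Cd81 with 0.22 and Tspan14 with 0.17, with adjusted p-values in edgeR of 0.578 and 0.523. The 8 genes that signal to the alpha6beta4 integrin had a median of 0.00, with Prkca at -0.27 (adjusted p = 0.312) and Prkcd at 0.25 (adjusted p = 0.350) the farthest out. The 6 listed regulators of basal adhesion genes had a median of 0.08, led by Tead1 with 0.19 (adjusted p = 0.514) and Klf4 with 0.16 (adjusted p = 0.591).

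Beside all gene reads of a member, reads of neighbouring genes were few. Of the 8 genes 3 overlap another listed gene, and for 2 of these the neighbour had reads. Hsd11b1, on the strand opposite Lamb3, had 262 and 551 reads in WT libraries against 218 and 89 in those labelled Nfat5-/-, at most 1.13% of the reads of Lamb3. In every library that was more than the intron reads of Lamb3. G0s2, opposite Lamb3 too, came to at most 0.184%, and Parp10, on the strand of Plec, to at most 0.799% of the reads of Plec. Uniquely placed reads made up 97.1 to 98.0% of the exon reads of Dst and at least 99.97% of those of every other member.

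The mean profile of the 8 genes, in centred log2(RPKM + 1), was 0.25, 0.05, -0.30 and 0.00 in WT replicates 1 and 2 and Nfat5-/- replicates 1 and 2. Of 9049 other tested genes with a mean of at least 2 RPKM, the 5 nearest to that profile by Euclidean distance over the 4 libraries were Tap1 (0.0554), Epha1 (0.0603), mt-Nd6 (0.0712), L3hypdh (0.0718) and Evc (0.0838). As an example, Tap1 had 16.2 and 13.2 RPKM in WT libraries against 10.3 and 13.0 RPKM in those labelled Nfat5-/-.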

How the data were processed

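RNA of 4 KC cultures was sequenced as single-end reads. The authors trimmed the reads and aligned them to GRCm38 with the CLC Genomics Workbench at default RNA-Seq settings. The deposited files give, per library and gene, raw counts of gene, exon, intron and exon-exon junction reads, not normalized, and RPKM values by the authors. Junction and intron rules are those of that software, and whether strand was used in counting is not stated. Groups and replicate numbers came from the sample titles. Exon and intron reads added up to gene reads in every row.

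Total gene reads were tested with edgeR 4.0.16 in R 4.3.3 (filterByExpr, TMM factors 0.980 to 1.01, quasi-likelihood fit with genotype alone, two-sided, Benjamini-Hochberg over 12614 genes, threshold 0.05). The SE is the log2 fold change divided by the square root of F. RPKM, the study's measure of expression, is given beside each test. Alternatives were RLE factors, library totals, other filters, DESeq2 1.42.0, limma-trend (limma 3.58.1) on log2(RPKM + 1) and log2(RPKM + 0.1) for genes with at least 0.5 RPKM in at least 2 libraries, exon and uniquely placed exon reads, an adjusted p of 0.1, a replicate block, and each library left out in turn. The fit was also run on simulated counts, whose outcome is not given here. Replicates differed by more than sampling noise (chi-square per degree of freedom 17.8 in WT and 18.4 in Nfat5-/-), so none looked like a library deposited again, which does not show that they are independent. CPM of exon or intron reads divide by the gene reads of the library. Wilson intervals of read shares and the floor of 3 reads cover counting error only, since reads carried no molecular identifiers. Intervals of log2 fold changes come from the edgeR fit and include the spread between libraries.

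The 8 genes, partner lists and marker lists were chosen with earlier results of these data known. Named were all 8, each listed gene past the threshold or, where fewer than 2 passed, the 2 with the largest absolute log2 fold change, and the 5 genes nearest in profile. Krt5, Krt14 and the neighbouring genes were named besides. Coordinates are those of the deposited tables, and promoter windows are from RefSeq. A further gene on the partner lists is not reported here.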

Additional observations from a re-analysis of the deposited data

Results flagged for a closer look

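A signal was noticed in reads that cross exon-exon junctions, which the comparisons of levels above do not use. Of the exon reads of Plec, 6.45% and 6.62% crossed a junction in WT replicates 1 and 2 (95% Wilson intervals 6.13 to 6.78% and 6.30 to 6.96%), and 8.39% and 8.13% in the replicates labelled Nfat5-/- (8.02 to 8.78% and 7.77 to 8.5%). Over whole libraries this share was 24.2% and 24.0% in WT and 25.0% and 24.6% in the others, so relative to its library the share of Plec was 1.23 times as high in the libraries labelled Nfat5-/-, rank 20 of 2991 genes with at least 1000 exon reads in every library. For Dst the share was 12.1% and 11.2% in WT libraries against 12.9% and 12.6% in those labelled Nfat5-/-, 1.07 times as high relative to the library (rank 267 of 2991). Relative to the library, Lama3 (0.976 times) and Itga6 (0.973 times) were lower without overlap, although their shares themselves overlapped between the groups, and the other 4 members overlapped. Among those 2991 genes, 13.1% were higher and 27.3% lower without overlap in the libraries labelled Nfat5-/-. Which exons the reads join is not in the tables, and none of these differences was tested.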

How the results depend on the processing

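Of the 10 settings tried beside leaving out a library, all kept the direction of all 8 genes, and Lama3 and Lamb3 stayed past the threshold in each, with log2 fold changes of -0.77 to -0.74 and -1.07 to -1.04. Itga6 passed in edgeR with no filter on low counts (-0.42, adjusted p = 0.00771), where 6.3% of 18043 genes were called. Libraries of the same replicate number did not share their deviations from the group means (correlation -0.0652). With 2 libraries a group this cannot show whether samples were paired, by number or by litter. With the replicate number as a block edgeR called 132 genes, 109 of them among the 160 without it, and 2 of the 8 genes (adjusted p = 0.0479 for Lama3 and 0.0186 for Lamb3). DESeq2 called 416 genes, an adjusted p of 0.1 called 364, and no filter called 1137, of which 63.6% were higher against 74.4% in the fit reported. The partner genes called, 1 in the fit reported, were 6 with no filter, beside that 6.3% of all genes. The cause was not tested.

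Leaving out each library in turn, where a lone sample is assumed to vary like the other group, gave 16 to 478 called genes (16 without Nfat5-/- replicate 2, 31 without Nfat5-/- replicate 1, 268 without WT replicate 1, 478 without WT replicate 2), 0 to 3 partner genes and 0 to 2 of the 8 genes. Log2 fold changes ranged from -0.87 to -0.61 for Lama3 (adjusted p = 0.0159 to 0.158), -1.11 to -0.98 for Lamb3 (0.00530 to 0.0558) and -0.56 to -0.26 for Itga6. The sign turned in Col17a1 (-0.33 to 0.21), Itgb4 (-0.30 to 0.16), Dst (-0.15 to 0.63), Plec (-0.41 to 0.0403) and Cd151 (-0.0336 to 0.0156), none of which passed the threshold in any setting. With 2 libraries a group, differences inside the intervals of those 5 genes were not detectable.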
